A study of Saccharomyces cerevisiae W303 with 3 samples.

Results

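Transcript levels of 42 autophagy genes of budding yeast were compared between 40 and 240 generations of continuous culture. The genes were taken by name from the 6252 genes of the array: every gene called ATG with a number, 36 in all including the pexophagy gene ATG36 (ORF YJL185C), and VAM3, VAM7, YPT7, VPS30, VPS34 and VPS15. The array design carries older names, so that a search of the printed names, with ATG36 sought by its ORF, found 7 of the 42. The names were therefore updated by ORF through the RefSeq annotation, in which all 42 had an entry. Of the members, 20 stood on the array under APG, AUT or CVT names and 11 under an ORF alone. For this comparison, 29 genes were taken as core machinery, 10 as selective factors and 3 stood outside both.

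Autophagy encloses cytoplasm in a double membrane, the autophagosome, and delivers it to the vacuole for breakdown. Most of the core machinery makes the membrane. The Atg1 kinase complex starts it, Atg9 vesicles and a PI3-kinase complex build it, and a pair of ubiquitin-like systems attaches Atg8 to it. Genes for fusion with the vacuole and for breakdown inside it were counted as core machinery here as well. In selective autophagy a receptor ties one cargo, such as a peroxisome, a mitochondrion or a stretch of endoplasmic reticulum (ER), to Atg8 and to the scaffold Atg11. Yeast also uses this machinery in growing cells, in the Cvt (cytoplasm-to-vacuole targeting) pathway, which brings hydrolases to the vacuole.

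Both groups came from W303, a laboratory strain of Saccharomyces cerevisiae described by the study as a haploid, of mating type MATa by the methods, with mutant alleles of leu2, trp1, can1, ura3, ade2 and his3. The 40-generation and the 240-generation cells shared this strain, a synthetic minimal medium with glycerol as the main carbon source, a dilution rate of 0.17 to 0.18 volumes per hour and a temperature of 30 °C, and they were taken at different times. The study found mutations in its cultures at the later time, in HOG1, MSY1 or URE2 and not the same in each, so that genotype can differ between the times as well, and the part of these mutations in the ratios was not tested. Each of 3 independent cultures, called Replicates 1, 2 and 3, was begun from a single colony and gave 1 RNA sample at each time. The pair was hybridized to 2 arrays with the Cy3 and Cy5 dyes exchanged, 6 arrays in all. In RNA of a whole culture, fewer cells with a transcript and less of it per cell cannot be told apart.

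The values below are log2 ratios of 240 over 40 generations, so that a negative value means less RNA at the later time. They were averaged over the dye swap and tested over the 3 cultures with limma, with Benjamini-Hochberg adjustment over the 5504 genes whose probe stood above background at either time. Median spot intensities were 518 to 1026.5 over local backgrounds of 40 to 68. A probe's normalized intensity on the log2 scale is given as its signal, which cannot be set against that of another probe. Of the 42 genes, 41 could be tested and 39 were above background on all 6 arrays at both times. The exception to testing was ATG16, a partner of the Atg12–Atg5 conjugate, whose 12 spots were all flagged as not found and which was above background on 0 arrays. Saturated pixels were seen in 0 of the members.

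The strain and the cultures were checked before the comparison. Of the genes that only alpha cells transcribe, 4 of 4 (STE3, MF(ALPHA)1, MF(ALPHA)2 and SAG1) were above background on all 6 arrays at both times. Of the genes that only a cells transcribe, 1 of 7 was (STE6). MFA2 and AGA2, which encode the a-factor pheromone and an agglutinin subunit, were above background on 0 arrays. ASG7 was above background on 6 arrays at 40 generations and 5 at 240, and STE2 on 4 and 2. BAR1 was on 3 and 0 arrays, and MFA1 on 2 and 1. Most of these levels go against the MATa mating type of the methods. STE3 (1.71-fold), MF(ALPHA)2 (5.50-fold) and SAG1 (2.67-fold) rose and ASG7 fell (1.41-fold), each at a limma adjusted p under 0.05. MF(ALPHA)1, STE2 and STE6 did not pass. The part of these genes in the values below was not tested. Replicate 1 stood apart: over the 41 genes its ratios had r = 0.70 with those of Replicate 2 and 0.56 with those of Replicate 3, against 0.87 between Replicates 2 and 3. Over all genes these values were 0.71, 0.66 and 0.88. These correlations are across genes of shared cultures and are given as descriptions.

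Most autophagy genes did not pass the test, and those that did were mostly lower at 240 generations. Of the 41 genes tested, 7 fell (ATG1, ATG22, ATG33, ATG36, ATG38, ATG40 and ATG41), 1 rose (ATG42) and 33 did not pass. The share called was 19.5%, below the 27.7% of all genes tested. The share that fell was 17.1%, against 13.7% of all genes, and the share that rose was 2.44%, against 14.0%. Each of the 8 genes had one sign on all 6 arrays, as did all 1522 genes called on the array, so that this sets the 8 genes apart in nothing. At an unadjusted p under 0.05 stood 17 of the 41 genes, or 41.5%, against 43.5% of all genes. The median over the members was −0.20 in Replicate 1, 0.08 in Replicate 2 and −0.05 in Replicate 3. Over all genes tested these medians were −0.02, 0.00 and 0.00.

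The counts depended on single cultures and on the pairing. Without Replicate 1, 20 members were called, 11 higher and 9 lower, or 48.8% against 45.0% of all genes. Without Replicate 2, 2 were called (ATG36 and ATG41), or 4.88% against 5.21%. Without Replicate 3, 4 were called (ATG1, ATG36, ATG40 and ATG41), or 9.76% against 12.1%. With Replicate 1 left out, the share of members that rose was 26.8%, against 22.3% of all genes. With the 2 times compared without pairing by culture, 2 were called (ATG1 and ATG41), or 4.88% against 7.83% of all genes. By the criteria of the study's methods, a mean of at least 0.9 in size and an unadjusted p of at most 0.05, 4 members were lower (ATG1, ATG22, ATG36 and ATG41) and 0 higher, or 9.76% against 7.32%. The study also set limits on the SD (at most 0.8, and at most 0.4 of the squared mean). With them 2 remained, ATG36 and ATG41, both lower, or 4.88% against 5.74%. This setting was added after the data were seen. These criteria were applied to the ratios and limma p used here, not to the study's own ratios and test. On the authors' deposited log2 ratios the mean of ATG40 was −1.20, against −0.83 here.

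**Figure D1:**
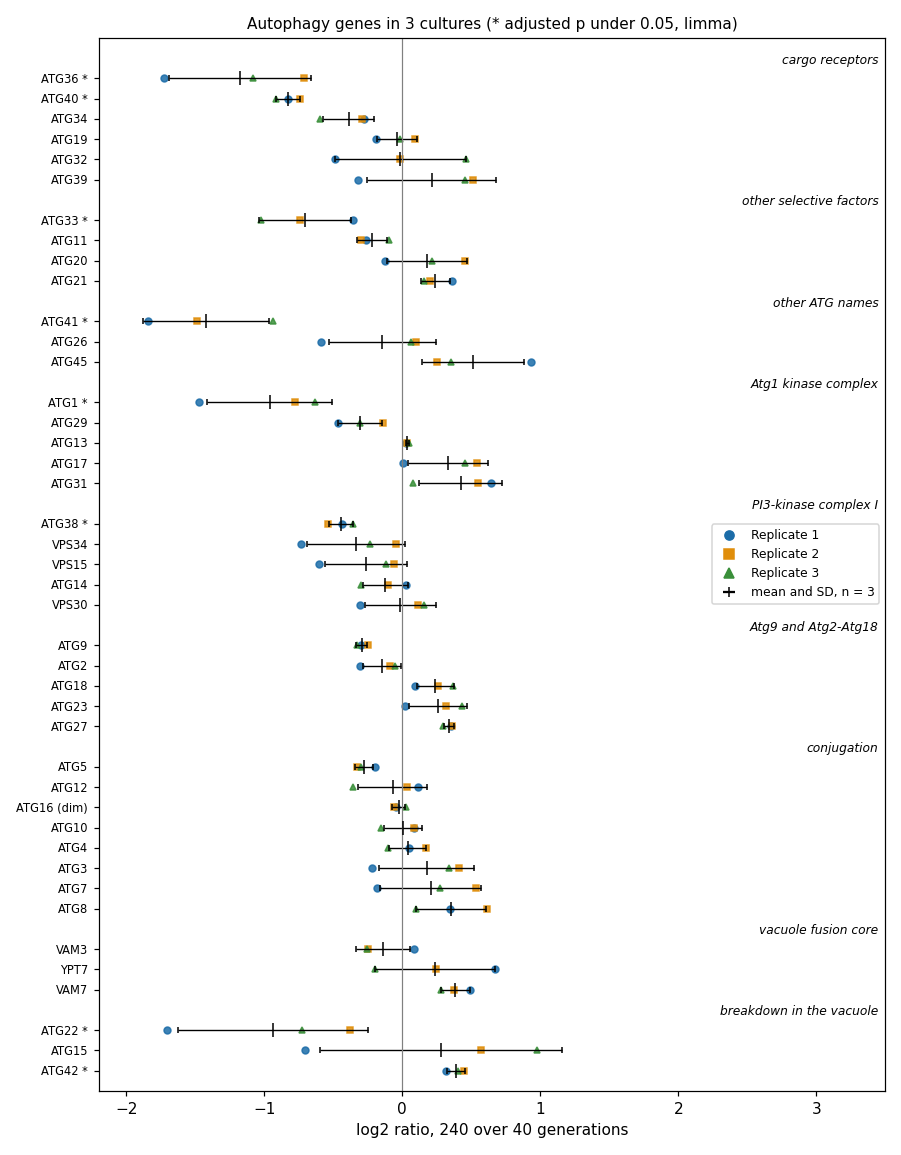
Log2 ratio of 240 over 40 generations for each of the 42 genes, grouped by role, with 1 point per culture and the mean and SD of 3 cultures; an asterisk marks an adjusted p under 0.05 in limma. ATG36, ATG40, ATG33, ATG41, ATG1, ATG38 and ATG22 lie below 0 in all cultures, ATG42 lies above 0, and ATG15 has the widest spread.

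Among the 6 genes listed as cargo receptors, 2 fell (ATG36 and ATG40) and 4 did not pass. The share that fell was 33.3%, against 13.7% of all genes, and 0 rose, against 14.0%. ATG36 encodes the receptor for pexophagy, the autophagy of peroxisomes, which binds the peroxisomal membrane protein Pex3. The study named ATG36 from these same samples, so that its direction here is not independent evidence. Its signal at 40 generations was 10.53, 10.21 and 11.22 in Replicates 1, 2 and 3, and at 240 generations 8.81, 9.50 and 10.14. All cultures were lower at the later time, Replicate 1 most, and the signals of the 2 times did not overlap. The log2 ratios were −1.73, −0.71 and −1.08, with a mean of −1.17 ± 0.51 (SD, n = 3), 2.26-fold lower (limma adjusted p = 0.0147, 95% interval −1.68 to −0.67). Its mean was −0.90 without Replicate 1 and the call held without any one culture.

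ATG40 encodes a receptor for autophagy of the cortical and cytoplasmic ER. Its signal was 8.53, 8.13 and 8.79 at 40 generations and 7.70, 7.39 and 7.87 at 240 generations. The signals did not overlap, and the cultures moved by nearly equal steps. The ratios were −0.83, −0.74 and −0.92, with a mean of −0.83 ± 0.09 (SD, n = 3), 1.78-fold lower (limma adjusted p = 0.00763, 95% interval −1.10 to −0.56). Without Replicate 2 the limma adjusted p was 0.0588, above the threshold. On the deposited log2 ratios of the authors its mean was −1.20.

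The other 4 receptors did not pass, and they differed in how the cultures lay. ATG34, the receptor that delivers alpha-mannosidase in starved cells, had ratios of −0.27, −0.29 and −0.60 and a mean of −0.39 ± 0.18 (SD, n = 3; limma adjusted p = 0.0625), below 0 on all 6 arrays. ATG19, its paralog and the receptor of the Cvt pathway, lay close to 0 in every culture, with −0.19, 0.09 and −0.02 (mean −0.04 ± 0.14, SD, n = 3; limma adjusted p = 0.822). The sequences of these 2 probes were not analysed here, and RNA of one paralog that binds the other's probe cannot be told apart.

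ATG32 encodes the mitophagy receptor of the outer mitochondrial membrane. Its signal was 11.29, 11.15 and 11.06 at 40 generations and 10.80, 11.13 and 11.52 at 240 generations. Replicate 1 was lower, Replicate 2 level and Replicate 3 higher, and the times overlapped. The ratios were −0.49, −0.02 and 0.46 (mean −0.02 ± 0.48, SD, n = 3; limma adjusted p = 0.956). ATG39, the receptor for the perinuclear ER and parts of the nucleus, was lower in Replicate 1 (−0.32) and higher in Replicates 2 and 3 (0.51 and 0.45), with a mean of 0.21 ± 0.47 (SD, n = 3; limma adjusted p = 0.425). Without Replicate 1 its mean was 0.48 (limma adjusted p = 0.00884). The receptors of the ER thus lay apart, ATG40 below 0 on all 6 arrays and ATG39 below 0 on 2 and above on 4; the difference between them was not tested.

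Of the other selective factors, ATG33 fell and ATG11, ATG20 and ATG21 did not pass. ATG33 encodes a mitochondrial outer membrane protein needed for mitophagy in stationary cells. Its signal was 10.10, 10.64 and 10.45 at 40 generations and 9.74, 9.90 and 9.43 at 240 generations, without overlap. Replicate 1 moved least and Replicate 3 most, the reverse of ATG36 for Replicate 1. The ratios were −0.36, −0.74 and −1.02, with a mean of −0.71 ± 0.33 (SD, n = 3), 1.63-fold lower (limma adjusted p = 0.0255, 95% interval −1.09 to −0.33). The call was lost without Replicate 2 (limma adjusted p = 0.132) and without Replicate 3 (0.102).

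ATG11, the scaffold that receptors bind, was below 0 on all 6 arrays with ratios of −0.26, −0.30 and −0.10, a mean of −0.22 ± 0.11 (SD, n = 3; limma adjusted p = 0.182). ATG21, a phosphoinositide-binding protein of the Cvt pathway, had a mean of 0.24 ± 0.11 (SD, n = 3) and ATG20, a sorting nexin of the same pathway, 0.18 ± 0.29. Neither passed. SNX4, the partner of Atg20, is no member by name and had a mean of −0.03 ± 0.11.

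**Figure D2:**
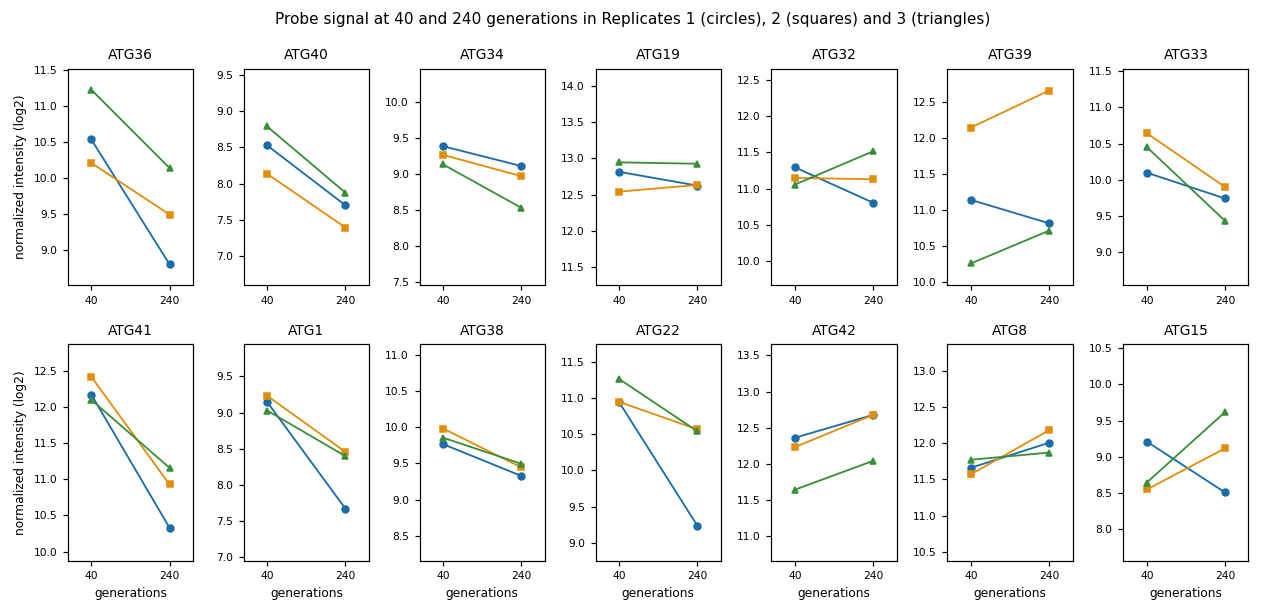
Normalized signal (log2 intensity) at 40 and 240 generations of the 8 genes that passed the test, the 4 other receptors, ATG8 and ATG15, with 1 line per culture and panels of equal height (3 log2 units). Lines of ATG36, ATG40, ATG33, ATG41, ATG1, ATG38 and ATG22 all descend, those of ATG42 all ascend, and those of ATG32, ATG39 and ATG15 cross or diverge.

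In the core machinery, 3 of 28 genes tested fell and 1 rose: 1 of the Atg1 kinase complex, 1 of the PI3-kinase complex and 2 for breakdown in the vacuole. The Atg1 kinase complex starts autophagosome formation. ATG1, its protein kinase, had signals of 9.15, 9.23 and 9.03 at 40 generations and 7.67, 8.46 and 8.40 at 240 generations. The times did not overlap, and Replicate 1 was the lowest at the later time. The ratios were −1.48, −0.78 and −0.63, with a mean of −0.96 ± 0.45 (SD, n = 3), 1.95-fold lower (limma adjusted p = 0.0188, 95% interval −1.42 to −0.50). Without Replicate 2 the adjusted p was 0.0734.

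The partners of Atg1 did not pass. ATG13, its regulatory subunit, had ratios of 0.02, 0.03 and 0.05, a mean of 0.04 ± 0.01 (SD, n = 3; limma adjusted p = 0.819), the smallest SD among the 41 genes, with a 95% interval of −0.22 to 0.29. The scaffold genes ATG17, ATG29 and ATG31 had means of 0.33 ± 0.29, −0.30 ± 0.16 and 0.42 ± 0.30. The interval of ATG1 did not overlap that of ATG13, ATG17 or ATG31; the differences between these genes were not tested.

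The PI3-kinase complex I marks the growing membrane with phosphatidylinositol 3-phosphate. ATG38, which encodes a subunit of the complex, fell. Its signal was 9.77, 9.98 and 9.85 at 40 generations and 9.33, 9.44 and 9.49 at 240 generations, without overlap. The steps were close in size, with ratios of −0.44, −0.54 and −0.36 and a mean of −0.45 ± 0.09 (SD, n = 3), 1.36-fold lower (limma adjusted p = 0.0337, 95% interval −0.71 to −0.18). The call was lost without Replicate 2 (limma adjusted p = 0.238) and without Replicate 3 (0.118). The lipid kinase gene VPS34 (−0.34 ± 0.36), its regulatory kinase VPS15 (−0.26 ± 0.30), the autophagy-specific subunit ATG14 (−0.13 ± 0.16) and VPS30 (−0.01 ± 0.26) did not pass. The means of all 5 genes lay below 0, and for VPS34 and VPS15 the lowest value was that of Replicate 1 (−0.73 and −0.60).

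The genes of Atg9 and of the Atg2–Atg18 lipid transfer complex did not pass. All 5 kept one sign in the 3 cultures, as did all 5 of the Atg1 kinase complex and 63.9% of all genes tested. ATG9, the membrane protein of the vesicles that seed the autophagosome, had ratios of −0.30, −0.25 and −0.33, a mean of −0.29 ± 0.04 (SD, n = 3; limma adjusted p = 0.0879). ATG23 and ATG27, which help Atg9 leave the Golgi, lay on the other side of 0, at 0.26 ± 0.21 and 0.34 ± 0.03. ATG2 lay at −0.15 ± 0.14 and ATG18 at 0.24 ± 0.14.

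The ubiquitin-like systems had 0 calls among 7 genes tested, where 27.7% of all genes were called. ATG8, whose product is joined to the lipid of the membrane and is what receptors bind, had a signal of 11.66, 11.57 and 11.77 at 40 generations and 12.01, 12.18 and 11.87 at 240 generations. Each culture was higher at the later time and the signals did not overlap, but the ratios of 0.35, 0.61 and 0.10 (mean 0.35 ± 0.26, SD, n = 3) did not pass (limma adjusted p = 0.104). ATG5 was lower in each culture, at −0.28 ± 0.07 (limma adjusted p = 0.104). ATG7, the activating enzyme, and ATG3, the conjugating enzyme of Atg8, were lower in Replicate 1 (−0.19 and −0.22) and higher in Replicates 2 and 3 (0.53 and 0.27 for ATG7, 0.41 and 0.34 for ATG3). The protease gene ATG4 (0.04 ± 0.14), ATG10 (0.00 ± 0.14) and ATG12 (−0.07 ± 0.25) lay near 0.

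Fusion of the autophagosome with the vacuole needs the Rab GTPase Ypt7 and the SNARE proteins Vam3 and Vam7. None of the 3 genes passed. VAM7 came closest, with 0.49, 0.38 and 0.28 (mean 0.38 ± 0.11, SD, n = 3; limma adjusted p = 0.0516). YPT7 ranged from 0.67 in Replicate 1 to −0.20 in Replicate 3, and VAM3 had a mean of −0.14 ± 0.19.

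The genes for breakdown inside the vacuole went opposite ways. ATG22, an exporter of amino acids from the vacuole, fell. Its signal was 10.95, 10.95 and 11.27 at 40 generations and 9.24, 10.57 and 10.54 at 240 generations, so that the times did not overlap and Replicate 1 lay far below the others at the later time. The ratios were −1.71, −0.38 and −0.72, with a mean of −0.94 ± 0.69 (SD, n = 3), 1.92-fold lower (limma adjusted p = 0.0457, 95% interval −1.58 to −0.30). Without Replicate 1 the mean was −0.55 (limma adjusted p = 0.00945), and without Replicate 2 or 3 the call was lost (0.0634 and 0.0571).

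ATG42, a vacuolar serine carboxypeptidase, was the only member that rose. Its signal was 12.36, 12.23 and 11.64 at 40 generations and 12.68, 12.68 and 12.04 at 240 generations. Each culture was higher at the later time, while Replicate 3 was the lowest at both times, so that the signals overlapped between times. The ratios were 0.32, 0.45 and 0.40, with a mean of 0.39 ± 0.07 (SD, n = 3), 1.31-fold higher (limma adjusted p = 0.0457, 95% interval 0.12 to 0.65). The call was lost without Replicate 2 (limma adjusted p = 0.283) and without Replicate 3 (0.207). With median centring of the arrays instead of a loess fit, the mean was 0.26 and the call was lost as well.

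ATG15, the lipase that breaks open the vesicles inside the vacuole, had the largest SD over the cultures of the 41 genes. Its signal was 9.21, 8.55 and 8.64 at 40 generations and 8.51, 9.12 and 9.62 at 240 generations. Replicate 1 was the highest at the early time and the lowest at the later time. The ratios were −0.70, 0.57 and 0.98 (mean 0.28 ± 0.88, SD, n = 3; limma adjusted p = 0.529). Without Replicate 1 the mean was 0.77 (limma adjusted p = 0.00313).

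ATG41, ATG26 and ATG45 were placed outside both groups. ATG45 was in none of the lists of roles, so that whether it belongs with the receptors was not judged here. ATG41, named ICY2 on the array, encodes a protein that works with Atg9, and of all members it had the mean farthest from 0. Its signal was 12.17, 12.42 and 12.10 at 40 generations and 10.33, 10.93 and 11.16 at 240 generations. The times did not overlap, and the step was largest in Replicate 1 and smallest in Replicate 3. The ratios were −1.84, −1.49 and −0.94, with a mean of −1.42 ± 0.46 (SD, n = 3), 2.68-fold lower (limma adjusted p = 0.00772, 95% interval −1.89 to −0.96). ATG41 and ATG36 were the 2 of 41 members with a mean at least 2-fold lower, or 4.88%, against 3.34% of all genes. That count holds for the main fit. With local background subtracted, ATG1 (−1.28), ATG40 (−1.17) and ATG22 (−1.01) were at least 2-fold lower as well. The share of all genes in that setting was not counted. ATG45 (0.93, 0.25 and 0.35; mean 0.51 ± 0.37, SD, n = 3; limma adjusted p = 0.0677) had the highest mean of the 41 genes and did not pass. ATG26, a sterol glucosyltransferase, lay at −0.14 ± 0.39.

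The core machinery and the selective factors were set side by side by the median of their genes in each culture. For the 28 core genes the median was 0.01, 0.10 and −0.08 in Replicates 1, 2 and 3, and for the 10 selective factors −0.30, −0.16 and −0.06. For the 6 genes listed as cargo receptors alone it was −0.41, −0.16 and −0.31. ATG45, with the highest mean of the members tested (0.51), was counted in none of these groups. Its ratio lay above the median of the receptors in each culture, so that the medians depend on leaving it out. The medians with ATG45 included were not computed. The core median was above that of the selective factors in Replicates 1 and 2, by 0.31 and 0.26, and level with it in Replicate 3 (−0.02). The mean difference was 0.18 ± 0.18 (SD, n = 3), and the sign was not the same in all cultures. It was not tested, since an exact sign-flip test over 3 cultures cannot go below a two-sided p of 0.25. Of the selective factors, 30% fell and 0 rose, and of the core genes 10.7% fell and 3.57% rose, against 13.7% and 14.0% of all genes.

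**Figure D3:**
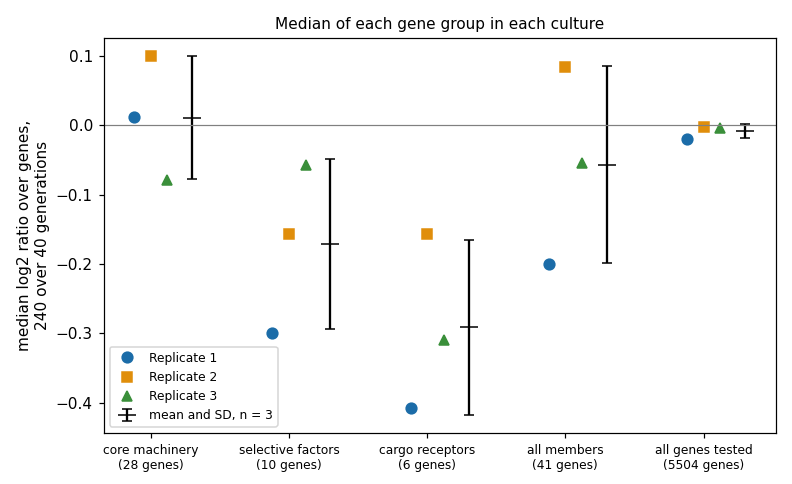
Median log2 ratio of 240 over 40 generations over the genes of each group, with 1 point per culture and the mean and SD of the 3 culture medians. The selective factors lie below the core machinery in Replicates 1 and 2 and beside it in Replicate 3, and the medians of all genes lie within 0.02 of 0.

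The cultures did not give one sign for every gene. In 26 of the 41 genes (63.4%) all 3 cultures had one sign, against 63.9% of all genes. In 7 genes (ATG3, ATG7, ATG15, ATG20, ATG26, ATG39 and VPS30) Replicate 1 was below 0 and both others above, 17.1% against 10.3% of all genes, and in 2 genes (ATG14 and VAM3) the reverse held, 4.88% against 9.19%. Replicate 1 had the lowest ratio of the 3 cultures in 22 of the 41 genes, 53.7% against 42.0% of all genes. The gap of Replicate 1 to the mean of the others reached at least 1 log2 unit in 2 genes, ATG15 (−1.48) and ATG22 (−1.16), or 4.88% against 4.22% of all genes.

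The departures of Replicates 1 and 3 moved with coding length, in opposite directions. Over the 41 genes the Spearman rank correlation between coding length and the departure of Replicate 1 from the others was −0.51, for Replicate 2 it was 0.27 and for Replicate 3 0.56, and over the 5347 tested genes with a known length −0.37, 0.09 and 0.43. Each departure is taken against the mean of the other cultures, so that the departures are not independent. The genes share arrays and RNA, and the correlations are a description. With a trend over length removed from each culture, 12 members were called, 4 higher and 8 lower, or 29.3% against 31.7% of all genes. All 8 genes of the main test were among them, and ATG31, ATG34, ATG45 and VAM7 were added. The part of length in single ratios was not tested further.

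**Figure D4:**
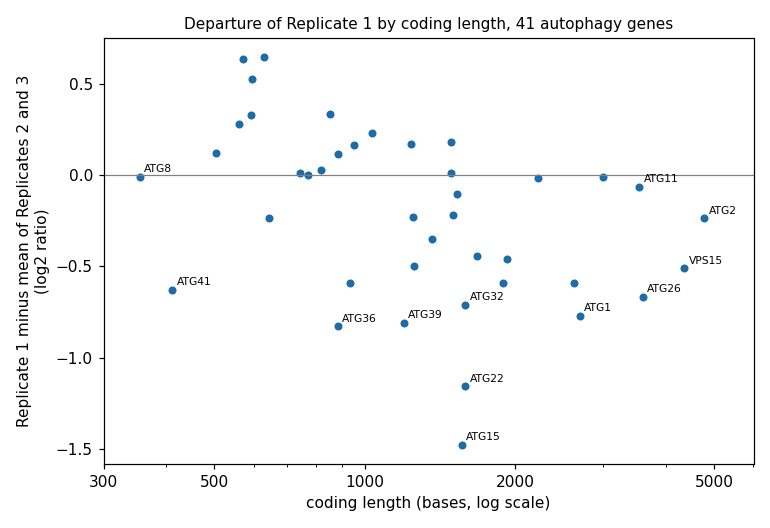
Log2 ratio of Replicate 1 minus the mean of Replicates 2 and 3 against coding length (bases, log scale), 1 point for each of 41 genes. ATG15 and ATG22 lie lowest, and the 3 genes above 0.5 are ATG33, ATG45 and YPT7.

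Genes that act beside the autophagy machinery were counted in the same way. Of 13 genes for vacuole fusion (the HOPS tethering complex, the Mon1–Ccz1 exchange factor and SNARE proteins) 0 were called, with 3 at an unadjusted p under 0.05, and of 5 genes for PI3-kinase complex II and membrane supply 0 were called, with 0 at that level. Of all genes tested, 27.7% were called and 43.5% stood at an unadjusted p under 0.05. Of 9 genes that control ATG transcription, 2 rose and 1 fell, 33.3% against 27.7% of all genes. RPD3, a histone deacetylase that represses ATG8 with Ume6, had ratios of 0.90, 0.65 and 0.29, a mean of 0.61 ± 0.30 (SD, n = 3; limma adjusted p = 0.0324). PHO23, a subunit of the Rpd3 complex known as a repressor of ATG9, had 0.48, 0.37 and 0.40, a mean of 0.42 ± 0.06 (limma adjusted p = 0.0376). RPH1, a histone demethylase that represses several ATG genes, fell, with −0.64, −0.38 and −0.50, a mean of −0.51 ± 0.13 (limma adjusted p = 0.0273). Without Replicate 2 these 3 calls were lost, with adjusted p of 0.161, 0.202 and 0.130, and without Replicate 3 those of PHO23 and RPH1 were (0.162 and 0.113). Of 17 alternative fits the call held in 15 for RPD3, 14 for RPH1 and 10 for PHO23, which was lost among others with local background subtracted (limma adjusted p = 0.0589), with median centring (0.0845) and on the authors' log2 ratios (0.0627).

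Of 6 genes for Cvt cargo and vacuolar hydrolases, 1 rose, 16.7% against 14.0% of all genes, and 0 fell, against 13.7%. APE1, named LAP4 on the array, encodes aminopeptidase I, the main cargo of the Cvt pathway and of its receptor Atg19. Its ratios were 0.45, 0.79 and 1.69, all above 0 and highest in Replicate 3. The mean was 0.97 ± 0.64 (SD, n = 3; limma adjusted p = 0.0353), beside the −0.04 of ATG19. The call of APE1 was lost without Replicate 2 (adjusted p = 0.103) and without Replicate 3 (0.0741), as well as with median centring (0.0599) and without the filter on dim probes (0.0597).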

How the data were processed

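The authors scanned the 6 arrays and extracted spots in GenePix Pro; the deposited values are pixel intensities of Cy5 and Cy3 with local background, not normalized, and the percent of saturated pixels per spot as given by the authors' software. The authors' deposited log2 ratios, made in Acuity by a normalization not given in the sources used here, served as an alternative. In R 4.3.3 with limma 3.58.1, medians were background-corrected (normexp, offset 50) and loess-normalized within arrays, control spots having no weight. Duplicate spots were averaged, then both dye-swap arrays of each culture, which share RNA, and 3 cultures were tested against 0 (lmFit, eBayes; adjusted p threshold 0.05). A gene was tested if its spots exceeded background by over 2 background SDs on at least 4 arrays at either time; normalized signals were scaled with Aquantile. Figures were drawn in Python 3.11.15. The fit was tested on simulated data. Lengths were those of RefSeq genes, nearly all multiples of 3.

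Members, gene lists and tests were chosen with earlier results of these data known, so counts are descriptions. Given in full were the genes that passed, all listed cargo receptors, ATG1, ATG8, ATG9, ATG11 and ATG13, and the gene with the largest SD. The other members are given in brief, and genes of the lists of neighboring function only where they passed. SNX4 was added after its values were seen. Promoter and probe sequences were not analysed here, and 4 probes with no line in the table of ratios were left out.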

Additional observations from a re-analysis of the deposited data

How the results depend on the processing

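The ratios pair the 2 times of a culture; with no replicate block, 0 members were called higher and 2 lower (ATG1 and ATG41). Against 1 higher, there were 0 with background subtracted, without background correction, with median centring, on the authors' log2 ratios or by the study's criteria on the mean and p, with or without its limits on the SD, 2 with scaling between arrays, Cy5 only at 240 generations or a trended prior, 3 without the filter on dim probes, and 4 with the length trend removed. Against 7 lower there were 4 by the study's criteria on the mean and p. There were 2 with its limits on the SD, a setting added after the data were seen. The study's criteria were applied to the ratios and limma p used here. Leaving out one culture gave 0 to 11 higher and 2 to 9 lower. ATG41 was called in all 17 alternative fits, ATG1 and ATG36 in 16, ATG40 in 15, ATG33 in 14, ATG38 in 13, and ATG22 and ATG42 in 9, with no change of sign. The difference of core and selective medians stayed between 0.12 and 0.30, with ATG45 in neither group in every setting.

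Signs changed only in members that were not called, and the cause was not tested. With median centring ATG13 was −0.057, ATG4 −0.054 and VPS30 0.0059; without background correction ATG10 was −0.00088; with mean pixels ATG32 was 0.0034. With Cy5 only at 240 generations ATG10 was −0.023, ATG13 −0.017 and ATG19 0.015, and with Cy3 only ATG32 was 0.022, ATG4 −0.082 and VPS30 0.0048. With the length trend removed ATG10 was −0.0031, ATG2 0.080, ATG26 0.029 and VPS30 0.0029, and on the authors' log2 ratios ATG32 was 0.038. Leaving out one culture, ATG10 ranged from −0.036 to 0.084, ATG12 from −0.16 to 0.073, ATG15 from −0.067 to 0.77, ATG19 from −0.10 to 0.037, ATG26 from −0.26 to 0.078, ATG32 from −0.25 to 0.22, ATG4 from −0.028 to 0.11 and VPS30 from −0.097 to 0.13. With 3 cultures, and with ATG10, ATG16 and ATG29 not above background on all arrays at both times, small changes could not be measured.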
